A study of Homo sapiens with 12 samples.

Results

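Glycolysis and its fermentative end were followed in HCT116, a human colon carcinoma cell line, through 10 genes: the glycolytic enzymes PFKP, ALDOA, TPI1, GAPDH, PGK1, PGAM1, ENO1 and PKM, and the lactate dehydrogenase subunits LDHA and LDHB. They were taken by gene name, and all 10 of 10 were found among the 57134 genes of the deposited table. The study set libraries treated with scDASH, a depletion of ribosomal RNA (rRNA) by Cas9 cleavage of rRNA-derived molecules, against untreated libraries. All 12 libraries were made from total RNA with MATQ-seq, an amplification method whose primers do not depend on a poly(A) tail. They fall into DASHed mini-bulk (2 libraries), untreated mini-bulk (2), DASHed single cells (4) and untreated single cells (4). The labels name no other treatment, and all groups share the one cell line. No culture is named for any library, and p-values therefore measure only how far these libraries spread, which may be technical.

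Glycolysis splits glucose into pyruvate in the cytosol, and lactate dehydrogenase reduces pyruvate to lactate, which restores the oxidised cofactor that GAPDH needs. Lactate dehydrogenase is a tetramer of LDHA and LDHB chains in any mixture. LDHA-rich tetramers are usually associated with making lactate and LDHB-rich ones with using it. Many colon carcinoma cells, HCT116 among them, run this pathway at a high rate even with oxygen present.

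A DASHed library held 837614 to 1573651 estimated counts and an untreated one 5545355 to 6026584. Levels below are CPM values taken over the counts outside rRNA. That sum leaves out rRNA genes and 4 lincRNA genes that lie inside 18S rRNA sequence, and it was 519157 to 1505387 per library. The epithelial keratin genes KRT8, KRT18 and KRT19 had counts in all 12 libraries, and EPCAM, an epithelial surface protein, in 11. Among markers of leukocytes, fibroblasts and endothelium, CD3E and VWF had no counts, whereas PTPRC and COL1A1 had counts in 7 libraries, PECAM1 in 8 and COL1A2 in 9. COL1A1 was the highest of them, at up to 46.5 CPM. The 6 epithelial markers summed to 909 to 6065 CPM, and the markers of the other cell types to between 0 and 53.2 CPM.

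The 10 genes fall apart in base composition, and the stretches below show it for the genes on which the results turn. Each is 90 bases of coding sequence, read 5′ to 3′ from the GENCODE v29 transcript (GRCh38), chosen as the in-frame stretch whose GC content is nearest to that of the whole coding sequence. Capitals mark G and C. LDHA and LDHB are shown because they fell after depletion, and GAPDH and ALDOA as GC-rich genes that rose.
LDHA: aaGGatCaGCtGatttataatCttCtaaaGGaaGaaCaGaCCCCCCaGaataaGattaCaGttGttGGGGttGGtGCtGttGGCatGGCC
LDHB: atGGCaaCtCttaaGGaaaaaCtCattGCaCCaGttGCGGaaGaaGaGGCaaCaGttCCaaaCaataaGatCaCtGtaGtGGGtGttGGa
GAPDH: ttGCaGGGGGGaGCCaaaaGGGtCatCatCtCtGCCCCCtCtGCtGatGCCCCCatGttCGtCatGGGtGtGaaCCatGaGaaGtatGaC
ALDOA: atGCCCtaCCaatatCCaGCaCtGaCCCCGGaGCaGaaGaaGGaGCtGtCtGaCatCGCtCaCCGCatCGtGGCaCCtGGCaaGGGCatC

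G and C made up 44.9% of the whole coding sequence in LDHA and 43.8% in LDHB. They made up 50.2% in PGK1, 55.3% in GAPDH and 59.4% in ALDOA. The contrast was wider at the third codon position, where the GC content was 42.4% in LDHB and 46.5% in LDHA, 56.0% in PGK1, and 64.5% (PKM) to 75.0% (PFKP) in the other 7. Over all annotated transcripts of a gene, UTRs included, the median GC content was 43.3% for PGK1, 44.0% for LDHB and 45.4% for LDHA. For the other 7 it ran from 52.2% (ENO1) to 60.7% (ALDOA), against a median of 51.4% over the genes tested in mini-bulk.

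In mini-bulk, both lactate dehydrogenase genes fell after depletion relative to other genes, while 7 of the 8 glycolytic enzymes rose by similar amounts and PGK1 did not pass the test. LDHA fell 7.38-fold and LDHB 5.40-fold. The 7 that rose did so by 1.75-fold (ENO1) to 2.15-fold (PFKP). The test was edgeR's quasi-likelihood test with TMM scaling over 10083 genes, at a Benjamini-Hochberg adjusted p of 0.05. Of all tested genes, 9.90% were called higher and 19.8% lower. The median log2 fold change was 0.83 over the 10 genes and 0.03 over all tested genes. The labelled difference between these libraries is the depletion, and all are of the same cell line. In a bulk level as such, fewer cells of a kind and less RNA per cell cannot be told apart.

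**Figure D1:**
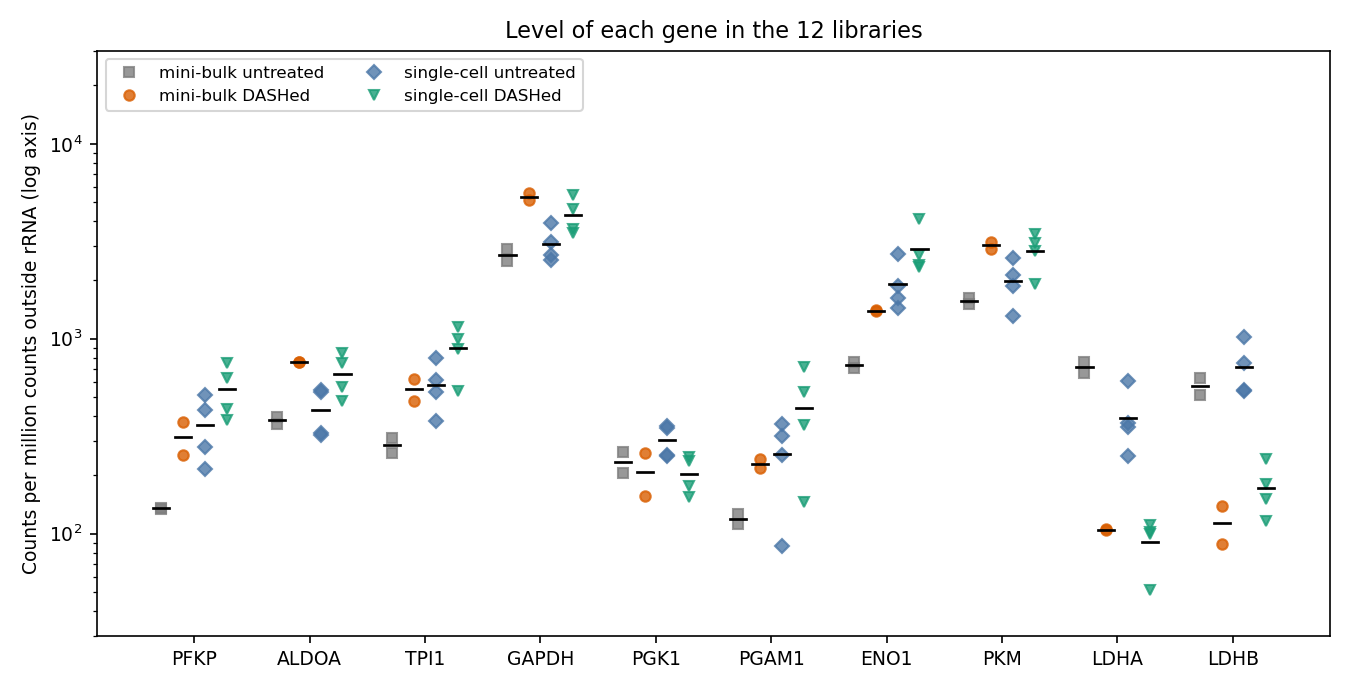
Level of each of the 10 genes in every library, in CPM outside rRNA on a log axis; symbols mark the 4 groups and black lines their means. LDHA and LDHB are the genes whose DASHed libraries lie far below the untreated ones in mini-bulk and in single cells.

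PFKP, ALDOA and TPI1, of the upper steps of the pathway, each rose. PFKP, the platelet-type phosphofructokinase of the committed step, stood at 374 and 252 CPM in the DASHed libraries and at 134 and 135 in the untreated ones (log2 fold change 1.10 ± 0.23 SE, edgeR adjusted p = 0.00794). The DASHed libraries were both higher, but differed from each other by 1.48-fold. ALDOA, the aldolase that cleaves the hexose bisphosphate, stood at 759 and 760 DASHed against 366 and 397 untreated (0.88 ± 0.15, edgeR adjusted p = 0.00411). ALDOA shares 53.5% of its exon bases with other annotated genes, so its assignment is uncertain. The main partner, AC093512.2, held at most 17 counts in a mini-bulk library. TPI1, which interconverts the resulting triose phosphates, stood at 619 and 480 DASHed against 310 and 259 untreated (0.84 ± 0.19, edgeR adjusted p = 0.0111).

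The middle steps held the exception. GAPDH, which oxidises glyceraldehyde phosphate, stood at 5576 and 5137 CPM DASHed against 2875 and 2503 untreated (0.88 ± 0.14, edgeR adjusted p = 0.00262). Its groups did not overlap. GAPDH is also uncertain in part, since an opposite-strand gene covers 14.2% of its exon bases and 62 pseudogene rows carry its name. Those pseudogene rows held 0.149 to 2.47% of the summed counts in a library. PGK1, the phosphoglycerate kinase that makes the first ATP of the payoff phase, stood at 260 and 156 DASHed and at 262 and 205 untreated. These ranges overlap, and the log2 fold change of -0.27 ± 0.26 did not pass the test (edgeR adjusted p = 0.44).

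The lower steps rose like the upper ones. PGAM1, a phosphoglycerate mutase, stood at 241 and 216 CPM DASHed against 126 and 112 untreated (0.83 ± 0.21, edgeR adjusted p = 0.0178). ENO1, the ubiquitous enolase, stood at 1388 and 1402 against 763 and 711 (0.81 ± 0.14, edgeR adjusted p = 0.00416). PKM, the pyruvate kinase gene expressed in most proliferating cells, stood at 2890 and 3130 against 1508 and 1611 (0.83 ± 0.14, edgeR adjusted p = 0.00326). For all 3 genes both DASHed libraries lay above both untreated ones. The share of all tested genes whose groups separated in this way was not counted, so separation in mini-bulk cannot be called unusual. Without untreated library 2, none of the 7 risen enzymes passed the test and the median over the 10 genes was 0.53, and without untreated library 1 only PFKP and GAPDH did. LDHA and LDHB passed in each case.

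LDHA, the subunit that predominates in muscle, was estimated in mini-bulk at 66 and 54 counts DASHed and at 653 and 695 counts untreated. This gave 106 and 104 CPM against 764 and 671 CPM, a log2 fold change of -2.88 ± 0.18 (edgeR adjusted p = 3.67e-05). Of all tested genes, 3.66% had a lower fold change. LDHB, the subunit that predominates in heart, had 86 and 46 counts DASHed against 537 and 530 untreated. In CPM this was 138 and 88.6 against 628 and 512 (-2.43 ± 0.23, edgeR adjusted p = 0.00022), and 7.04% of tested genes lay lower. The groups were far apart for both genes, and the DASHed libraries, with fewer total counts, held fewer LDHA and LDHB counts outright. LDHB shares 33.4% of its exon bases with AC010197.2 on the same strand, which had at most 6 counts in a mini-bulk library.

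Scaling between libraries sets the size of these changes. When libraries were scaled to total counts alone, rRNA included, LDHA still fell (log2 -0.86, edgeR adjusted p = 0.0157), LDHB no longer passed (-0.41, edgeR adjusted p = 0.242), and PGK1 stood at 1.75 and the 7 others at 2.84 to 3.11. That scaling moved nearly all genes up, with a median log2 fold change of 2.04 over all tested genes and 6718 of 10083 called higher, so PGK1 lay below the median gene and the 7 others above it. On the scale of counts outside rRNA, the DASHed to untreated ratio was 0.146 for LDHA, 0.199 for LDHB and 0.889 for PGK1. For the 7 others it was 1.89 to 2.32. The median gene moved by 0.14 on the log2 scale there.

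Shares within the 10 genes need no scaling between libraries. LDHA and LDHB together made up 1.81% ± 0.235 (SD, n = 2) of the counts of the 10 genes in DASHed mini-bulk and 17.3% ± 0.97 (SD, n = 2) in untreated mini-bulk. The exact permutation p (two-sided) was 0.33, and 2 against 2 libraries allow none smaller. GAPDH took 44.5% of the 10 genes' counts in DASHed and 36.2% in untreated libraries. The 10 genes together were 0.717% ± 0.0136 of all counts in DASHed and 0.118% ± 0.0122 in untreated mini-bulk (SD, n = 2 each, exact permutation p = 0.33). Outside rRNA they were 1.20% and 0.743%.

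The balance of LDHA and LDHB varied between libraries. In mini-bulk, LDHA was 43.4% and 54.0% of LDHA plus LDHB counts after depletion, and 54.9% and 56.7% without it. The exact (Clopper-Pearson) 95% intervals of the DASHed values were 35.4 to 51.7% and 43.7 to 64.0%, since they rest on 152 and 100 counts, and they cover counting error only. The exact permutation p of the difference was 0.33. In single cells the share was 25.4 to 46.0% DASHed and 31.6 to 39.2% untreated, and these ranges overlap.

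Fold change followed transcript GC content across the whole table, with a Spearman correlation of 0.789 over 10080 genes in mini-bulk and 0.708 over 13466 genes in single cells. These are correlations across genes that share libraries, given as a description. Over the 10 genes the values were 0.903 and 0.539. Tested genes within 1 percentage point of LDHA's GC content (781 genes) had a median log2 fold change of -1.09, those near LDHB (802 genes) one of -1.38, and those near PGK1 (814 genes) one of -1.48. LDHA and LDHB lay below these medians and PGK1 above its own. Among those neighbours 2.82% had a lower fold change than LDHA, 12.8% a lower one than LDHB and 87.6% a lower one than PGK1. In single cells 9.03% lay below LDHA, 16.7% below LDHB and 80.7% below PGK1.

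**Figure D2:**
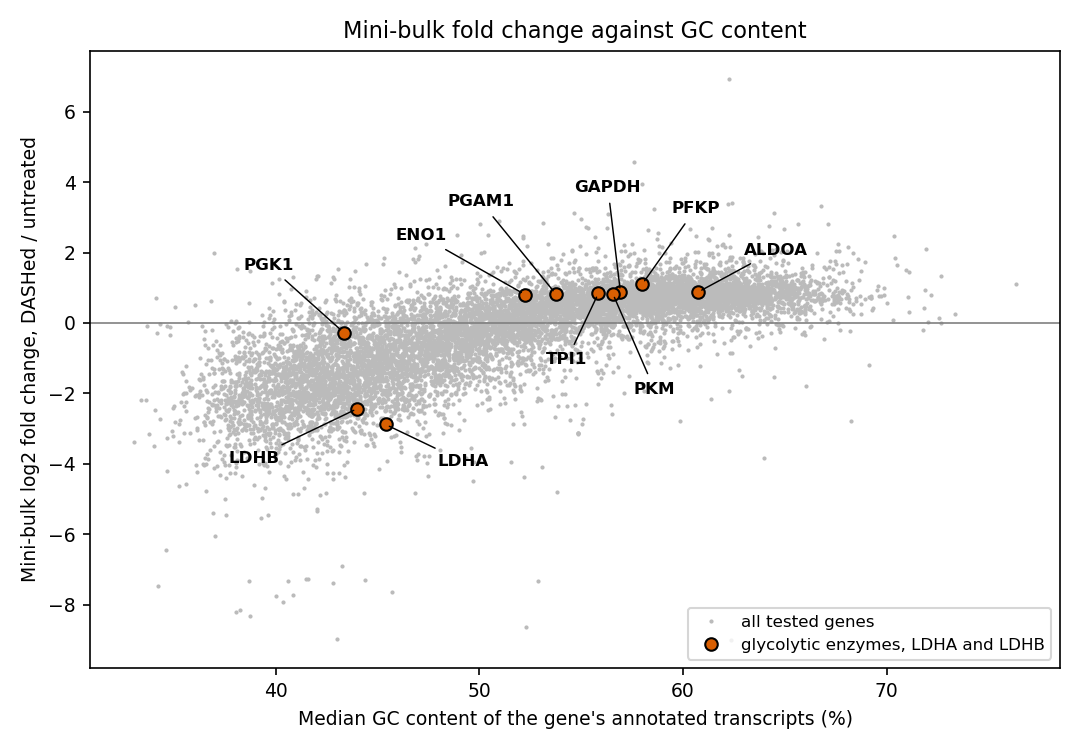
Mini-bulk log2 fold change (DASHed over untreated) of every tested gene against the median GC content of its transcripts in percent; the 10 genes are ringed and named. LDHA lies near the lower edge of the genes at its GC content and LDHB in their lower part, and PGK1, of similar GC content, lies above most of them.

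With each library's trend on GC content removed, edgeR still called LDHA lower at a log2 fold change of -1.87 (adjusted p = 0.000433) and LDHB at -1.22 (adjusted p = 0.0105). PGK1 turned from not called to higher, at 1.03 (edgeR adjusted p = 0.0371). ENO1 stayed higher at 0.73 (edgeR adjusted p = 0.023). The other 6 enzymes, at 0.15 (ALDOA) to 0.56 (PGAM1), did not pass in this fit. Only 379 of all genes passed in this fit.

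In single cells the same division appeared, as values without a test, because each library is 1 cell and a group counts as 1 sample. Log2 ratios of mean CPM (here of all counts), with 1 CPM added, were taken relative to the median of 13469 genes, which itself was 2.17-fold higher in DASHed cells. LDHA stood at -1.68 and LDHB at -1.61, PGK1 at -0.13, and the 7 other enzymes at 0.93 (GAPDH) to 1.23 (PGAM1). Of the 10 genes 5 lay more than 2-fold above the median gene, where 12.4% of all genes lay, and 2 more than 2-fold below it, where 23.6% lay. PKM at 0.9998 and GAPDH fell just short of the 2-fold line, and PFKP (1.01), ENO1 (1.02) and TPI1 (1.04) just past it. Without untreated cell 1 the number past 2-fold was 4, and without untreated cell 4 it was 2, LDHA and LDHB. Summed over the 4 cells, LDHA had 322 counts DASHed (exact Poisson 95% interval 288 to 359) and 2064 untreated (1976 to 2155). LDHB had 614 (566 to 665) and 3736 (3617 to 3858). These intervals cover counting error only, not the spread between cells or that of amplification. PGK1 had 733 and 1553, while the ratio of summed counts of the 7 others was 0.967 to 1.20. On the scale of counts outside rRNA, the DASHed to untreated ratio in cells was 0.231 for LDHA, 0.242 for LDHB and 0.673 for PGK1. For the 7 others it was 1.41 (GAPDH) to 1.71 (PGAM1), and their DASHed and untreated cells overlapped, unlike in mini-bulk.

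Libraries of the same number in both single-cell groups deviated from their group means together, so ratios were also taken within the 4 pairs. LDHA was at -1.65, -2.25, -1.74 and -2.04 in pairs 1 to 4, each relative to that pair's median gene. LDHB was at -2.05, -1.88, -1.95 and -1.61. Both lay below the median gene in 4 of 4 pairs. PGK1 was at -0.54, -0.38, -0.45 and -0.31, below the median gene in 4 of 4 pairs. The 7 other enzymes were above it in 4 of 4 pairs, between 0.53 (PKM, pair 3) and 1.06 (PGAM1, pair 3). How many of all genes kept the same side in 4 of 4 pairs was not counted, so this constancy cannot be called unusual. By the median over pairs 2 of the 10 genes, LDHA and LDHB, lay past 2-fold, and none lay past it upward. Set against the trend on GC content, LDHA stood at -1.06, LDHB at -0.82 and PGK1 at 0.73.

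**Figure D3:**
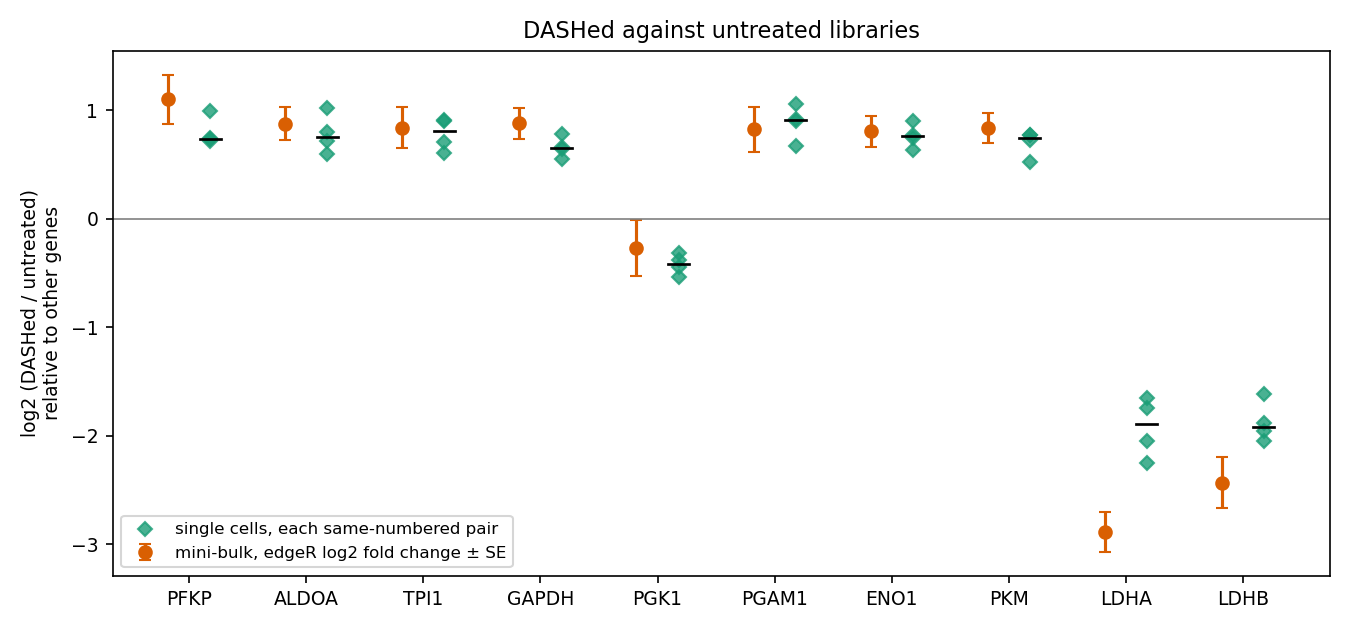
DASHed over untreated on the log2 scale, relative to other genes: orange points are the mini-bulk edgeR fold changes with their SE, green diamonds the 4 same-numbered pairs of single cells with a black line at their median. In every pair LDHA and LDHB lie at -1.61 or lower and PGK1 between -0.54 and -0.31, and the other 7 genes lie above 0.

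Between individual cells the enzymes did not move as one block. Cell 2 was the highest of the 4 cells in both treatments for 6 of the 10 genes, PFKP, TPI1, GAPDH, ENO1, LDHA and LDHB. That pattern was singled out after its values were seen, and 24.0% of 4417 genes show it. Cell 2 also had the lowest share of rRNA and 18S lincRNA counts in both treatments, 29.9% DASHed and 72.9% untreated, and the part of this in the levels was not tested. ENO1 stood at 2386, 4096, 2691 and 2342 CPM in DASHed cells 1 to 4 and at 1444, 2715, 1859 and 1619 in untreated cells. Cell 2 was thus 1.66 and 1.65 times the mean of the other cells. GAPDH, at 3498, 5456, 3654 and 4624 DASHed and 2532, 3910, 2682 and 3137 untreated, had the same highest cell. PFKP ran from 383 (cell 1) to 754 (cell 2) DASHed and from 214 to 517 untreated in the same cells. TPI1 ran from 542 (cell 3) to 1149 (cell 2) DASHed and from 379 to 792 untreated in the same cells.

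Other enzymes peaked elsewhere. PGAM1 varied most, at 362, 531, 717 and 146 CPM in DASHed cells 1 to 4 and 254, 318, 366 and 86.5 in untreated cells. Cell 3 exceeded cell 4 by 4.91-fold and 4.24-fold. PKM also peaked in cell 3 and was lowest in cell 4, at 3106, 2806, 3463 and 1919 DASHed and 2130, 1857, 2586 and 1302 untreated. ALDOA peaked in cell 1, at 848, 480, 751 and 565 DASHed and 549, 328, 531 and 322 untreated. PGK1 was highest in cell 4 in both treatments, at 154, 236, 175 and 248 DASHed and 251, 347, 254 and 356 untreated. Its DASHed and untreated cells did not overlap, but only just, with 248 the highest DASHed and 251 the lowest untreated value. On this scale the median gene itself moved by -0.20 in log2 in single cells.

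**Figure D4:**
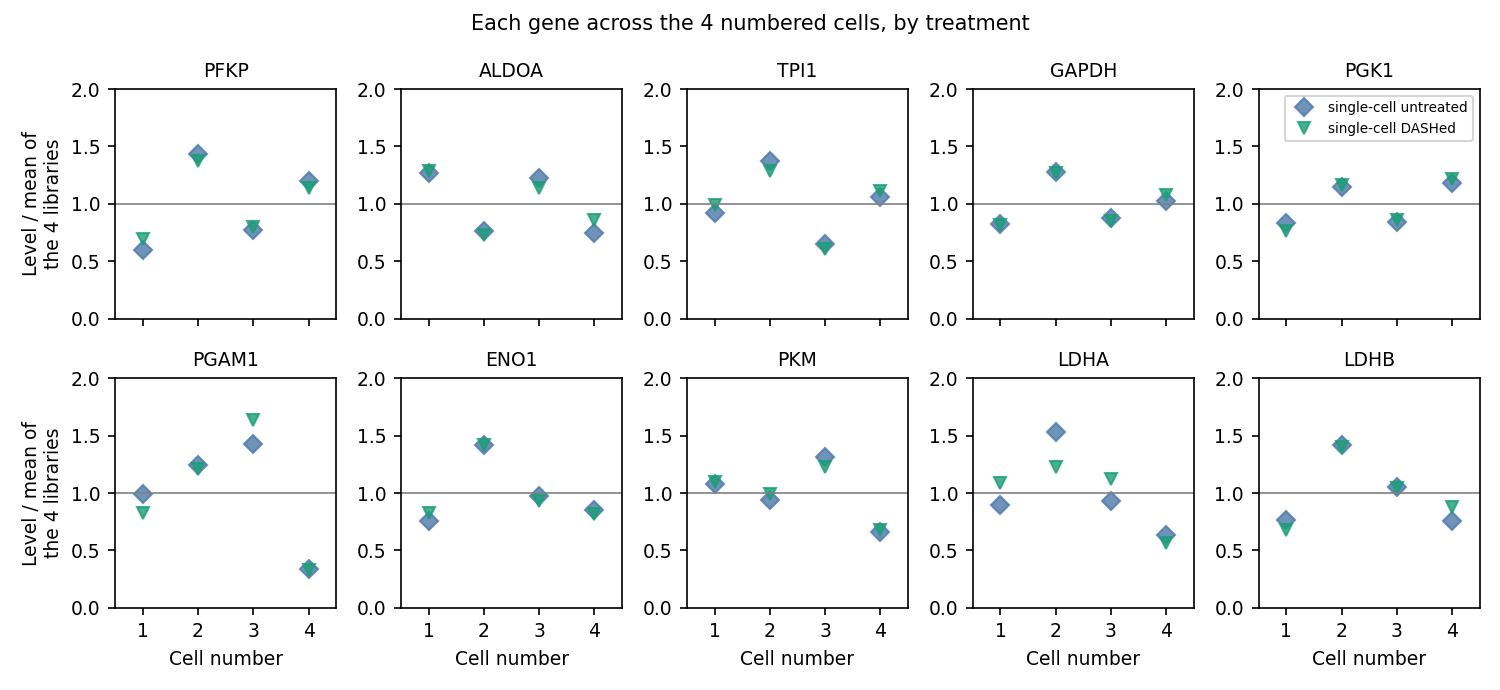
Level of each gene in cells 1 to 4, divided by the mean of the 4 libraries of the same treatment; blue diamonds are untreated and green triangles DASHed libraries. PGAM1 drops in cell 4 and peaks in cell 3 in both treatments, whereas ENO1, GAPDH, PFKP, TPI1, LDHA and LDHB peak in cell 2.

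The dehydrogenase subunits kept their cell order in part. LDHA stood at 99.2, 111, 102 and 51.3 CPM in DASHed cells 1 to 4 and at 354, 604, 368 and 249 in untreated cells, so that cell 2 was highest and cell 4 lowest in both. The lead of cell 2 over the mean of the others was 1.32-fold DASHed and 1.87-fold untreated, with 52 to 109 DASHed counts behind each value. LDHB stood at 116, 242, 180 and 151 DASHed and at 549, 1015, 752 and 538 untreated. No DASHed cell reached an untreated one for either gene. The share of all genes that separated in this way was not counted, so this gap and that of PGK1 cannot be called unusual. The highest cell was the same in both treatments for 10 of 10 genes, where 82.7% of all genes have this, and the full order of the 4 cells for 7 of 10, where 56.7% have it.

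By the likeness rule, the genes nearest to the mean profile of the 10 over the 8 single-cell libraries were UBAP2L (Pearson r = 0.993), CCAR2 (0.992) and TUBG1 (0.991), out of 4407 genes ranked. The 8 libraries share 4 cell numbers, so this describes few independent points. UBAP2L had 585, 1053, 980 and 579 counts in DASHed cells 1 to 4 and 850, 2311, 1136 and 709 in untreated cells, again highest in cell 2.

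Single cells and mini-bulk differed for a few of the genes within a treatment. In untreated libraries, the mean over cells was 2.67 times the mini-bulk mean for PFKP, 2.59 times for ENO1 and 2.03 times for TPI1, and the cells did not overlap mini-bulk for these. LDHA was 0.55 times its mini-bulk level, also without overlap. The median of 8593 genes was 1.10. In DASHed libraries only PFKP (1.76) and ENO1 (2.06) did not overlap, and the median of 6381 genes was 1.12. How many of all genes also lacked overlap was not counted, so these cases cannot be called unusual. These values were not tested, since a single-cell group counts as 1 sample.

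Levels of different genes were compared per length of their median coding transcript, in units scaled like TPM (counts over length, as a share of the sum over genes outside rRNA). In untreated mini-bulk GAPDH was first at 2750, followed by ENO1 (1513), PKM (1114), LDHB (1001) and LDHA (722). Then came TPI1 (359), ALDOA (345), PFKP (250), PGAM1 (85.3) and PGK1 (83.8). The neighbours PKM and LDHB, TPI1 and ALDOA, and PGAM1 and PGK1 overlapped in their 2 libraries. In DASHed mini-bulk LDHB stood seventh at 188 and LDHA ninth at 100, above PGK1 at 70.2. In single cells ENO1 came first, at 3843 untreated and 5562 DASHed, and GAPDH next, at 3060 and 4117, with overlapping cells. The lengths used for ENO1 (637 bases), PFKP (705) and LDHB (744) are shorter than their coding sequences of 1305, 2355 and 1005 bases. Their levels above are therefore too high for a full-length transcript. With the longest transcript as the length, untreated mini-bulk had PFKP at 116 and LDHB at 880. With the longest transcript as the length, GAPDH came first in single cells, at 3799 untreated and 5222 DASHed. ENO1 was then second, at 1904 and 2820. Only 3 of the 10 mini-bulk ranks stayed when the longest transcript set the length, so this order rests on the annotation.

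Lists of sugar metabolism genes around these 10 were read from the same mini-bulk test. Their counts are to be read against the 9.90% of all tested genes called higher and the 19.8% called lower. Of 22 other glycolytic genes 10 were tested and 1 rose, a share near that of all genes. It was GPI, the isomerase that precedes phosphofructokinase (edgeR log2 fold change 0.85, adjusted p = 0.0037). The list's median was 0.31, and its genes LDHC, LDHD, LDHAL6A and LDHAL6B had too few counts to test. Of 9 tested genes of transport and regulation 2 rose, BSG and the lactate exporter gene SLC16A3, and 2 fell. BSG, the chaperone of monocarboxylate transporters, rose by 0.92 (edgeR adjusted p = 0.00428). HIF1A, the hypoxia factor that drives many glycolytic genes, fell by 1.46 (edgeR adjusted p = 0.00784), at a transcript GC content of 39.2%. The monocarboxylate transporter gene SLC16A7 fell by 1.91 (edgeR adjusted p = 0.0401), on 7.19 and 3 counts DASHed against 29.4 and 28.2 untreated.

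Routes onward from pyruvate and beside it were read from the same test. Of 10 tested genes for pyruvate entry into mitochondria none rose and 1 fell, DLD, the dihydrolipoamide dehydrogenase of several complexes (edgeR log2 -2.81, adjusted p = 0.00953), with 2 and 6 counts DASHed against 41 and 48 untreated. In the citric acid cycle 3 of 14 rose, among them OGDH and MDH2, and 3 fell, among them CS, the citrate synthase gene. The number that fell in both lists is near or under the share of all genes, 19.8%. For the 3 of 14 that rose, the share of all tested genes called higher was 9.90%. SDHC, a membrane anchor of succinate dehydrogenase, fell by 2.26, IDH3A, the catalytic subunit of isocitrate dehydrogenase, fell by 1.38, and its regulatory partner IDH3G rose by 1.13 (edgeR adjusted p = 0.00618, 0.03 and 0.0275). In the pentose phosphate pathway 3 of 7 tested genes rose, against 9.90% of all tested genes, and none fell. The median GC content of this list was 56.5%. Among those that rose, TKT, a transketolase, rose by 1.01 and PGD, the phosphogluconate dehydrogenase, by 0.83 (edgeR adjusted p = 0.00382 and 0.0252). None of the 3 tested gluconeogenesis genes passed. The tested genes for pyruvate entry had a median GC content of 44.2% and a median log2 fold change of -0.56.

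In GRCh38 (GENCODE v29), PFKP lies on chromosome 10 at 3066333 to 3137712 and PGAM1 on the same chromosome at 97426160 to 97433441. LDHA lies on chromosome 11 at 18394388 to 18408425, plus strand. Chromosome 12 holds GAPDH (6533927 to 6538374) and TPI1 (6867119 to 6870948) on the plus strand, and LDHB (21635342 to 21757857) on the minus strand. ENO1 lies on chromosome 1 at 8861000 to 8879250, PKM on 15 at 72199029 to 72231822, ALDOA on 16 at 30064164 to 30070457, and PGK1 on X at 77910739 to 78129296. LDHA and PKM share no exon base with another annotated gene, and PGAM1 shares none either. Pseudogene rows named after PGAM1 reached 10.8% of its summed counts in 1 library, so its low values are uncertain.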

How the data were processed

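The values are estimated counts that the authors deposited in 1 table, unscaled. The submitters' processing notes name kallisto 0.46.2. The sources used here do not give the build, annotation or strand handling. The method divides reads among similar transcripts, so near-identical copies affect each other. A spreadsheet had altered 52 names, and 51, PGK1 among them, were restored from GENCODE v29.

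The 10 genes and the lists were chosen with earlier results of these data known. Estimated counts were rounded and tested in mini-bulk with edgeR 4.0.16 (TMM, default filter, Benjamini-Hochberg threshold 0.05), after a check on simulated data. The SE of a mini-bulk log2 fold change was back-calculated as its absolute value over the square root of edgeR's F statistic. It is thus not independent of the p-value. Single-cell ratios used a pseudocount of 1 CPM and genes with at least 20 summed counts, without a test. GC content and lengths came from GENCODE v29 transcripts. Each list's named genes are the up to 3 called genes with the largest fold, otherwise its 2 most abundant. A gene that the rule for lists took and a marker gene are not reported here. Likeness was the Pearson correlation of centred log2 values over genes with at least 50 counts on average.

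Same-numbered DASHed and untreated cells had deviations correlated at 0.926 to 0.936 over 7347 genes, and others at -0.401 to -0.212. No label explains the numbers, so this pairing comes from the data. Alternatives changed scaling, filter, pseudocount, GC correction, block, pseudogene rows, lengths and libraries.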

Additional observations from a re-analysis of the deposited data

How the results depend on the processing

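In mini-bulk, 9 of the 10 genes were called, and DESeq2, the unfiltered fit and pseudogene rows added to their gene gave counts within 1.5 times of this. The GC offset gave 4, the GC offset with replicate block 9 (7 higher, PGK1 among them, and ALDOA not called), and leaving out 1 library gave 2 to 9. The median log2 fold change of 0.83 became 2.85 with total counts alone, 0.33 with the GC offset and 0.33 with the GC offset and replicate block, and 0.53 to 0.95 without 1 library. LDHA passed in all 11 alternatives and LDHB in 10. PGK1 stood at 1.75 with total counts alone, still below that scaling's median gene at 2.04. It reversed to 1.03 with the GC offset, 1.02 with the GC offset and replicate block, and 0.16 without DASHed library 2, against -0.66 without untreated library 2. The cause was not tested. The difference in the 10 genes' share of counts, 0.599 points, became 0.461 outside rRNA and 0.589 to 0.608 without 1 library. That in the LDHA share ran from -12.4 to -1.80 points. The single-cell median of 1.01 became 1.41 with a pseudocount of 5, 0.58 over genes with at least 100 counts, 2.12 with total counts, 0.74 over pairs (replicate block), 0.31 against the GC trend, and 0.79 to 1.09 without 1 library. The 7 genes past 2-fold became 9 with a pseudocount of 5, 2 with at least 100 counts, 2 over pairs, 1 against the GC trend, and 2 to 9 without 1 library. With total counts alone the number stayed 7, but all 7 lay upward. LDHA at -0.57 and LDHB at -0.49 were then no longer past 2-fold. The order per length kept 3 of 10 ranks with the longest transcripts and 3 with the basic set, the latter added after seeing the data. With the replicate number as a block, mini-bulk edgeR called the same number, 9, of the genes, and 2359 genes higher and 3044 lower in all, against 998 and 1999 without it. With 2 pairs the numbers are not shown to mark pairs (correlation 0.507). The DASHed LDHA and LDHB values rest on 46 to 193 counts a library, which limits their precision.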
